A study of Homo sapiens with 9 samples.

Results

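The potassium and calcium channel subunits followed here are the protein-coding genes whose symbol begins with KCN or CACN, 121 of the 51796 genes in the deposited count table, chosen by symbol alone. Of these, 95 are potassium (KCN) and 26 calcium (CACN) channel genes. Total RNA depleted of ribosomal RNA was sequenced in 9 libraries from A549, a human cell line derived from lung adenocarcinoma. The tested groups carried a stable short hairpin RNA against PRMT5, an arginine methyltransferase of the symmetric type, or against MEP50 (gene WDR77), its partner in the methylosome, and the control group carried a hairpin against GFP. All 3 groups were kept under puromycin selection, with 3 replicates each. The labels call these biological replicates without saying how they were derived, so the p-values below measure the spread between these samples, which may be technical. With 1 hairpin group per target the data cannot tell loss of the target apart from other effects of its hairpin or line.

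Potassium channels let potassium leave or enter the cell and so set the resting membrane potential and end electrical signals; their pores are built from KCN pore subunits that open with voltage, with intracellular calcium, or without a gate of this kind. Voltage-gated calcium channels admit calcium through a CACNA1 pore subunit, and CACNA2D, CACNB and CACNG subunits alter its delivery to the membrane and its gating. Beyond excitable tissue, both families are known for roles in cell volume, proliferation and migration, including in tumour cells.

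Between 20806181 and 31586128 reads per library fell on genes, and 14582 genes passed the low-count filter. PRMT5 fell to 68.9 ± 1.33 CPM (read counts scaled to TMM-adjusted library size; mean ± SD, n = 3) in the PRMT5 knockdown, against 208.5 ± 3.17 CPM in the GFP control. WDR77 fell to 12.5 ± 1.58 CPM in the MEP50 knockdown, against 39.4 ± 0.225 CPM in the GFP control. Of 6 epithelial markers, KRT8 and KRT18 supplied most of a summed level of 4154 to 4313 CPM in the PRMT5 knockdown, 3869 to 4146 CPM in the MEP50 knockdown and 6345 to 6575 CPM in the GFP control. CDH1 averaged 34.9 CPM in the PRMT5 knockdown and 75.6 CPM in the MEP50 knockdown, against 40.1 CPM in the GFP control, and KRT7 averaged 3.24 and 4.19 CPM, against 2.52 CPM. EPCAM stayed at 0.29 CPM or lower in every library and KRT19 had 2 reads in all. Of 5 alveolar and airway markers, SFTPB and SCGB1A1 had no read and SFTPC had 5. FOXJ1 had 169 reads, at means of 0.818, 0.363 and 0.876 CPM in the PRMT5 knockdown, MEP50 knockdown and GFP control. NKX2-1 had 18 reads, at 0.101, 0.102 and 0.0112 CPM in the same order. Since channel genes are known best from neurons and muscle, markers of these were also read. The 5 neuronal markers summed to 44.3 to 47.7 CPM in the PRMT5 knockdown, 65.2 to 70.5 CPM in the MEP50 knockdown and 185 to 199 CPM in the GFP control, with STMN2 at 0 and RBFOX3 at 0.145 CPM or lower in every library. MAP2 supplied most of these sums, at a mean of 37.5, 59.4 and 182.7 CPM in the PRMT5 knockdown, MEP50 knockdown and GFP control. SNAP25 was also present, at 6.54, 6.21 and 7.68 CPM, and so was SYP, at 2.25, 1.62 and 2.79 CPM, in the same order. Of 5 muscle markers 3 had no read, and 5 fibroblast markers summed to 10.5 to 11.5, 25.9 to 27.7 and 11 to 13.2 CPM in the PRMT5 knockdown, MEP50 knockdown and GFP control. Within this sum COL1A1 averaged 10.4, 18.8 and 6.88 CPM and LUM 0.629, 7.9 and 5.17 CPM in these groups. In the PRMT5 knockdown the 2 thus went opposite ways. COL1A2, DCN and PDGFRB had 10, 1 and 14 reads in all. The 5 blood and endothelial markers summed to 21.8 to 25.4, 24.6 to 28.2 and 14.8 to 16.5 CPM in the same order, nearly all of it CD68, with CD3E at 0 and PTPRC at 3 reads in all. The part of these differences in the channel results was not tested, and in bulk RNA fewer cells with a transcript and less of it per cell cannot be told apart.

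Most channel genes were silent or nearly so in A549 cells. Of the 121 members, 42 had enough reads to be tested, 45 had reads but too few, and 34 had no read in any library. A count of 0 allows up to 3 reads in a library, which covers counting error only. Genes without a read included KCNQ1, KCNJ10, KCNJ12, KCNA3, KCNA5 and CACNA1F. The members nearest the filter were KCNE3, tested with 64 reads in all, and KCNMA1, not tested with 79, because the filter asks for reads in enough libraries and not for a total. KCNMA1, the pore of the large-conductance calcium-activated (BK) channel, had 20, 11 and 33 reads in PRMT5 knockdown replicates 1, 2 and 3, against 1, 2 and 6 in the MEP50 knockdown and 0, 3 and 3 in the GFP control. Its summed reads were 64 in the PRMT5 knockdown and 6 in the GFP control, a ratio of 9.97 (95% counting interval 4.34 to 28.2), which is a description of these libraries. None of the 4 BK beta subunit genes was tested.

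The tested members were also low beside other genes. Their median level was 2.5 CPM, against 23.3 CPM over all tested genes, and 3 of the 42 exceeded 10 CPM on average while 8 stayed under 1 CPM. Between genes, levels are compared as CPM per kb of exon. By its mean over the 3 groups, the highest was the low-voltage-activated (T-type) calcium pore CACNA1H, at 8.19 CPM per kb in the PRMT5 knockdown, 5.7 in the MEP50 knockdown and 3.5 in the GFP control. Next came KCNF1, a silent subunit that conducts only together with another voltage-gated pore, at 5.14, 6.07 and 3.72 CPM per kb, and CACNA2D1, the alpha2delta subunit bound by gabapentin, at 4.77, 4.02 and 3.71 CPM per kb in the same 3 groups. Within single groups CACNA1H was highest in the PRMT5 knockdown, while KCNF1 was above it in the MEP50 knockdown and both KCNF1 and CACNA2D1 were above it in the GFP control, KCNF1 each time by less than its SD. In the GFP control KCNF1 and CACNA2D1 were at 3.72 ± 0.371 and 3.71 ± 0.149 CPM per kb, closer than their spread. The highest member in each of the other families was KCNK5 among the tandem pore-domain channels, KCNE4 among the KCNE subunits, KCNJ14 among the inward rectifiers, and KCNQ5, KCNN4, KCNH3, KCND1, KCNAB2, KCNIP2, CACNB3 and CACNG6 in their own families.

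**Figure D1:**
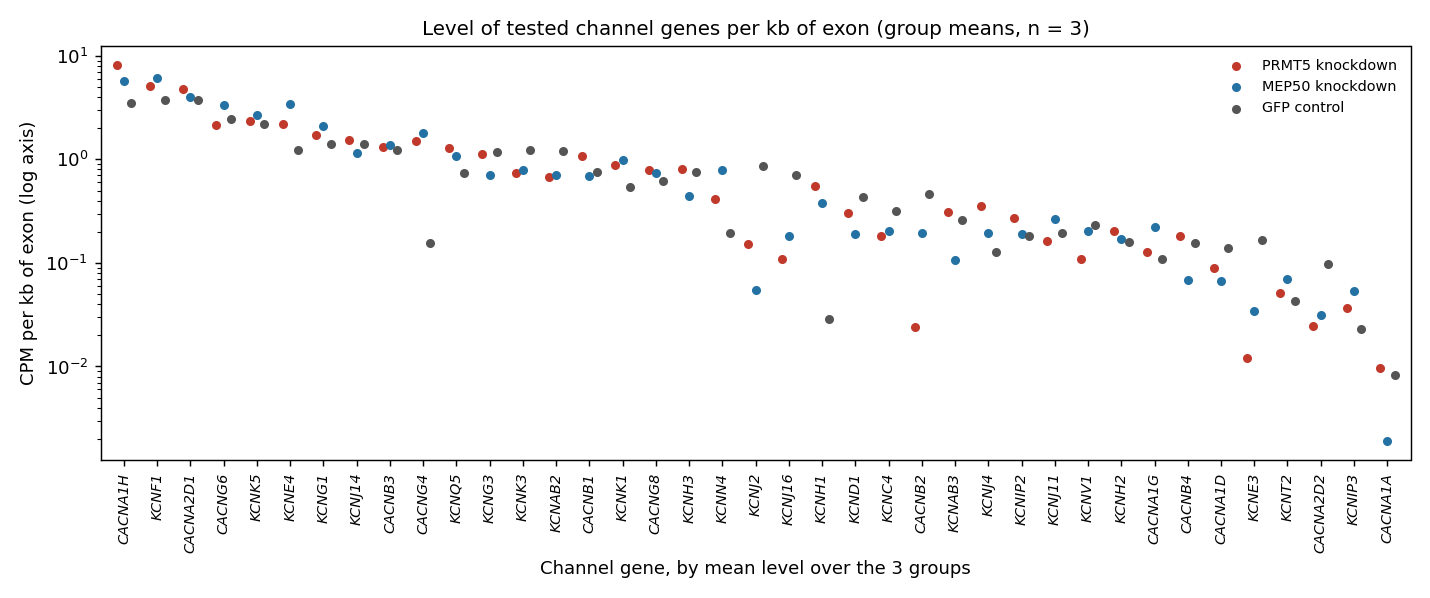
Mean level per kb of exon (vertical log axis, CPM per kb) of tested channel genes, ordered by their mean over the PRMT5 knockdown, the MEP50 knockdown and the GFP control (3 libraries each, no error bars); 3 of the 42 tested genes are not drawn, while KCNH1, KCNJ2 and CACNB2 are. CACNA1H comes first by this mean, at 8.19, 5.7 and 3.5 CPM per kb in these groups, KCNF1 is above it in the MEP50 knockdown and the GFP control, and the control points of CACNG4 and KCNH1 lie far under those of both knockdowns.

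Calcium channel transcripts took up more of the library in both knockdowns, and potassium channel transcripts changed little in sum. All CACN genes together made up 157 ± 2.11 CPM in the PRMT5 knockdown, 127 ± 3.12 CPM in the MEP50 knockdown and 103 ± 2.2 CPM in the GFP control (SD, n = 3), and the libraries of the groups did not overlap. Without CACNA1H and CACNA2D1 the sums were 43.7 ± 0.9, 41.5 ± 0.69 and 39.8 ± 1.11 CPM in the same order, and these 2 genes held most of the difference. The KCN genes together made up 107 ± 1.45, 108 ± 1.33 and 104 ± 3 CPM. Their sums overlapped between the PRMT5 knockdown and the control, while every MEP50 knockdown library was above every control library, the nearest at 106.9 against 106.7 CPM.

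**Figure D2:**
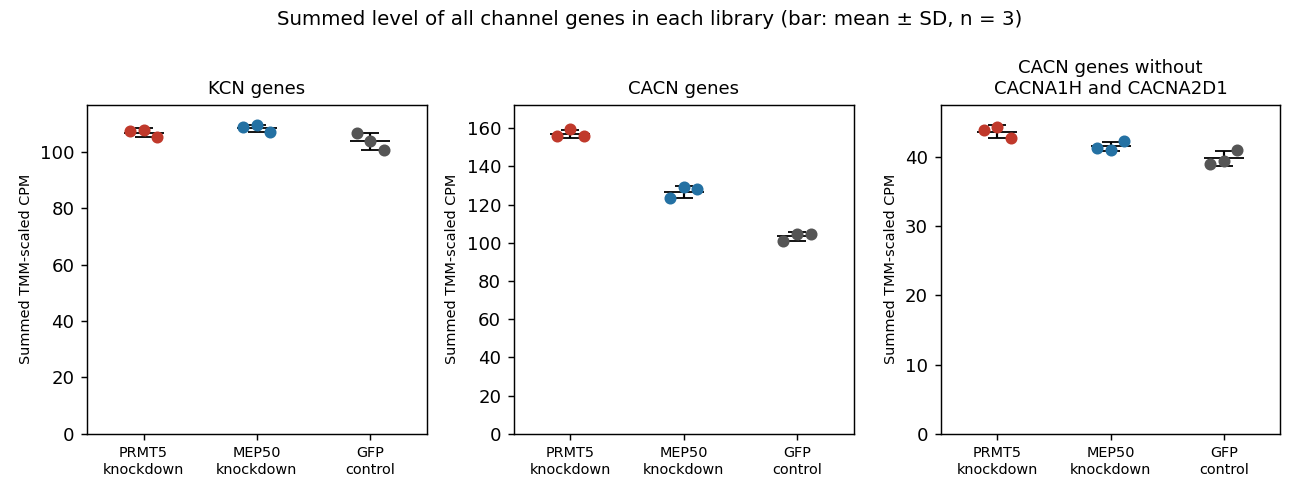
Summed CPM of all KCN genes, all CACN genes, and CACN genes without CACNA1H and CACNA2D1, by library, with PRMT5 knockdown, MEP50 knockdown and GFP control from left to right (points are libraries, bars mean ± SD, n = 3). The CACN sums are 156 to 159.6 CPM in the PRMT5 knockdown, 123 to 129 CPM in the MEP50 knockdown and 101 to 105 CPM in the GFP control. The KCN sums overlap between PRMT5 knockdown and GFP control, while those of the MEP50 knockdown (106.9 to 109.5 CPM) lie just above the control (100.7 to 106.7 CPM).

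KCNH1, KCNJ2 and CACNB2 had been singled out for how far they stood from the GFP control, so their values are given as a description, with no test and outside the counts of calls. KCNH1 (ENSG00000143473) encodes a voltage-gated potassium pore of the ether-à-go-go family, best known from brain and found ectopically in many tumours. It had 5.44, 6.19 and 4.8 CPM in PRMT5 knockdown replicates 1, 2 and 3, and 3.43, 4.4 and 3.28 CPM in the MEP50 knockdown, against 0.279, 0.202 and 0.362 CPM in the GFP control. Every knockdown library was above every control library, and the PRMT5 knockdown libraries were above those of the MEP50 knockdown. The KCNH1 control level rests on 23 reads, and the ratio of summed reads was 19.6 in the PRMT5 knockdown (95% counting interval 12.9 to 31.2) and 13.1 in the MEP50 knockdown (8.54 to 21). KCNH2 and KCNH3, the other tested members of its family, did not pass the test in the PRMT5 knockdown (log2 fold changes 0.31 ± 0.313 and 0.09 ± 0.205, ± SE).

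The inward rectifier genes KCNJ2 and KCNJ16 lie side by side on chromosome 17, with no protein-coding gene between them in RefSeq (GRCh38.p14), and both were lower in the knockdowns. KCNJ2 (ENSG00000123700), whose channel holds the resting potential near the potassium equilibrium, had 0.75, 0.936 and 0.884 CPM in the PRMT5 knockdown and 0.387, 0.327 and 0.211 CPM in the MEP50 knockdown, against 5.23, 4.86 and 4.46 CPM in the GFP control. The libraries of the 3 groups did not overlap, and the MEP50 knockdown was lowest. Its summed reads were 76 in the PRMT5 knockdown, 21 in the MEP50 knockdown and 398 in the GFP control. KCNJ16 (ENSG00000153822), a subunit that is known to form channels with KCNJ10 or KCNJ15, had 0.513, 0.871 and 0.694 CPM in the PRMT5 knockdown and 0.967, 1.4 and 1.09 CPM in the MEP50 knockdown, against 6.43, 3.71 and 3.41 CPM in the GFP control. Control replicate 1 stood well above the other two, and every control library was above every knockdown library. KCNJ16 was 6.36-fold lower in the PRMT5 knockdown (log2 fold change -2.67 ± 0.268, edgeR p adjusted over all 14582 genes 4.22e-11) and 3.89-fold lower in the MEP50 knockdown (-1.96 ± 0.258, 2.61e-08). Its partners KCNJ10 and KCNJ15 had 0 and 3 reads in all 9 libraries. The genes flanking the pair differed far less: MAP2K6 was at 11.2 ± 0.973, 14.7 ± 0.477 and 14.4 ± 1.61 CPM, and SOX9 at 59 ± 3.54, 61.4 ± 2.14 and 68.6 ± 1.2 CPM, in the PRMT5 knockdown, MEP50 knockdown and GFP control.

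The promoters of KCNH1, KCNJ2 and KCNJ16 are shown because the first rose far above and the others fell far under the control in both knockdowns, and because the 2 neighbours that fell have unlike promoters. Each run is 5′ to 3′ on the gene's strand, from 250 bases before to 50 after the RefSeq start (GRCh38.p14), with CG dinucleotides in capitals. KCNJ16 has 3 starts in this table, of which the most upstream is printed, and the gene-level counts do not tell which start was used.
KCNH1 (chr1:211134099-211134398, minus strand): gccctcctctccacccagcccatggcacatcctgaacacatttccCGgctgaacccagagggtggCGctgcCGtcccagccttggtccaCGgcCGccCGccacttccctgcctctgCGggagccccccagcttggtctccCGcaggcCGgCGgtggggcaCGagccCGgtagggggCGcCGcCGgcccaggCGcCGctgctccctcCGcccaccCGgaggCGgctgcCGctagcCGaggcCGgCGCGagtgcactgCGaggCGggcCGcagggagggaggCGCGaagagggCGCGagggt
KCNJ2 (chr17:70169282-70169581, plus strand): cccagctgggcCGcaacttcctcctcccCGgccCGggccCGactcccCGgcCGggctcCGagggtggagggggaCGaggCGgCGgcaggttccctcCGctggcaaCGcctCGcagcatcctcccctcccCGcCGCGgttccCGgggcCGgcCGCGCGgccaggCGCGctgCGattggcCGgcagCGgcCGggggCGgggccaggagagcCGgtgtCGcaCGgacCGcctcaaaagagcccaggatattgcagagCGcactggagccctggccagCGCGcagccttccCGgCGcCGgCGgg
KCNJ16 (chr17:70074975-70075274, plus strand): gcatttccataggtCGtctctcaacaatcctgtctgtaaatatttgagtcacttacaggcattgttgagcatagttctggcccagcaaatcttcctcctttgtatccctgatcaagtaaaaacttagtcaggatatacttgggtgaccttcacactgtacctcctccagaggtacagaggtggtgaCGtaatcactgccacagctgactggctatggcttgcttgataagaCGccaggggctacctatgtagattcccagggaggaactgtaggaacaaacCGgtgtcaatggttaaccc
The KCNH1 window held 32 CG dinucleotides and the KCNJ2 window 39, numbers reached by 18.9% and 8.71% of all 35116 promoter windows, while the KCNJ16 window held 4 and its other windows 5 and 7. The letters GGGCGG, read on both strands and sharing a CG with the first motif, occurred 2 times in the KCNH1 window, 1 time in that of KCNJ2 and in no KCNJ16 window; 45% of all windows hold them. TATAAA on either strand was in none of these windows and is in 11.5% of all windows. Over 49 start windows of tested members the median was 23 CG dinucleotides, against 13 over 87 windows of members that were not tested and 14 over all windows. Such matches describe the letters of the window and no more.

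CACNB2 (ENSG00000165995) encodes a beta subunit, which carries the calcium pore to the membrane and is best known from heart. It had 0.355, 0.161 and 0.126 CPM in the PRMT5 knockdown and 1.55, 1.36 and 2.33 CPM in the MEP50 knockdown, against 3.91, 3.54 and 5.11 CPM in the GFP control. The groups did not overlap, with the MEP50 knockdown in between. With 18, 127 and 344 summed reads in these groups, the ratio to the control was 0.0489 in the PRMT5 knockdown (95% counting interval 0.0287 to 0.0785) and 0.431 in the MEP50 knockdown (0.349 to 0.53). KCNH1, KCNJ2, KCNJ16 and CACNB2 share exon bases with an annotated gene on the opposite strand, as do 21 of the 42 tested members, and 5 share them on the same strand. Whether the counting used strand is not given in the sources used here, so reads of such pairs may not be told apart. KCNH1 is also among the 5, with 1969 of its 9812 exon bases shared with genes that are not in the count table. Reads of those genes could be counted as KCNH1 with either strand setting.

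**Figure D3:**
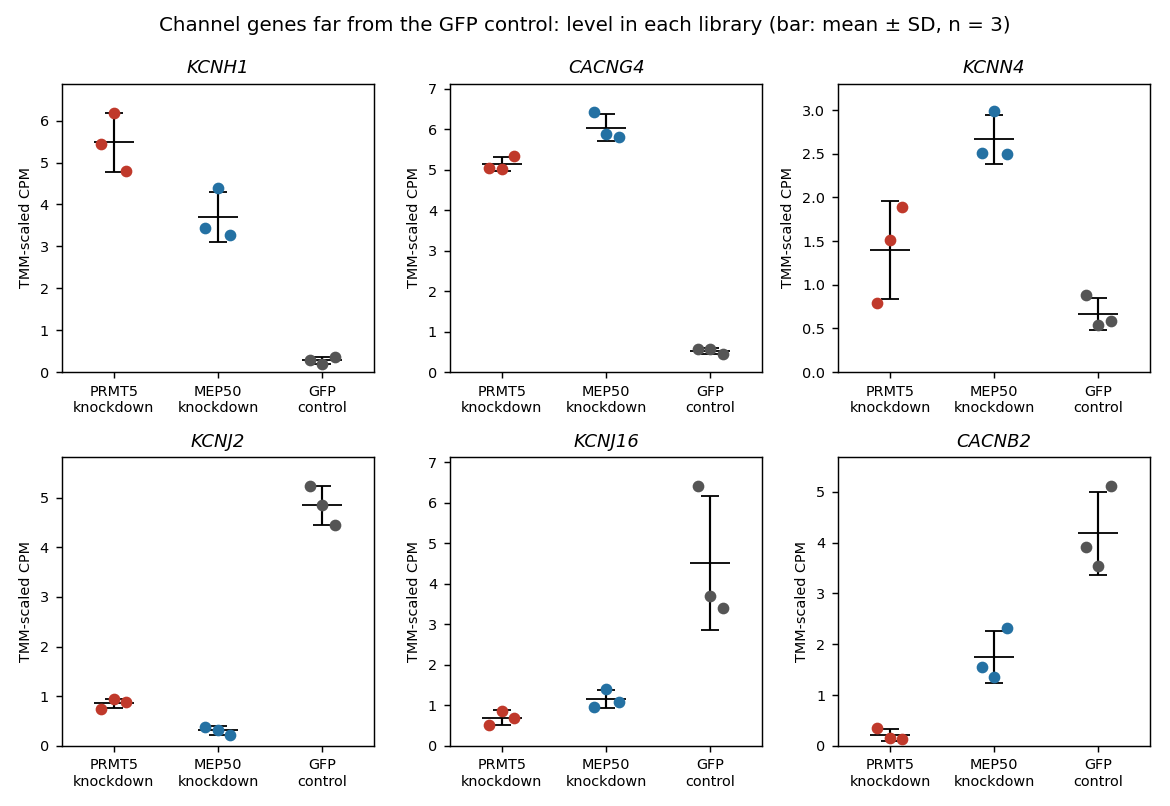
TMM-scaled CPM (vertical axes, from 0) of 6 channel genes in each library of the PRMT5 knockdown, MEP50 knockdown and GFP control, left to right (points are libraries, bars mean ± SD, n = 3). KCNH1 and CACNG4 are under 0.6 CPM in every control library and above 3 CPM in every knockdown library, KCNJ2, KCNJ16 and CACNB2 are lower in every knockdown library than in every control library, and KCNN4 overlaps between PRMT5 knockdown and control.

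In the PRMT5 knockdown, 14 of the 39 other tested members were higher and 8 lower than in the GFP control, and 17 did not pass the test. These 39 leave out the 3 genes described above, and a gene passed at an edgeR adjusted p below 0.05. Over all tested genes 51% passed in this comparison, 26.1% higher and 24.9% lower. Changes of at least 2-fold passed in 10 of the 39, against 7.25% of all tested genes. The median log2 fold change was 0.23, against 0.00 over all tested genes. In the MEP50 knockdown 12 members were higher and 14 lower than in the GFP control, beside 51.7% of all genes that passed, 26.5% higher and 25.2% lower. There 11 of the 39 passed with at least 2-fold, against 7.51% of all tested genes, and the median was 0.12, against 0.00. Both comparisons share the control libraries, and the members were proposed with both in view, so nothing is read from these shares. The authors' deposited tables listed 24 of the 121 members for the PRMT5 knockdown and 26 for the MEP50 knockdown. They held 6807 and 6832 of the 51796 genes, and nothing is read from these counts. In the authors' deposited tables KCNH1 stood at 4.27 and 3.70, KCNJ2 at -2.48 and -3.99 and CACNB2 at -4.32 and -1.23 as edgeR log2 fold changes. The DESeq2 values there were smaller in size: 3.14 and 2.61 for KCNH1, -2.06 and -2.9 for KCNJ2, and -2.94 and -1.03 for CACNB2.

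**Figure D4:**
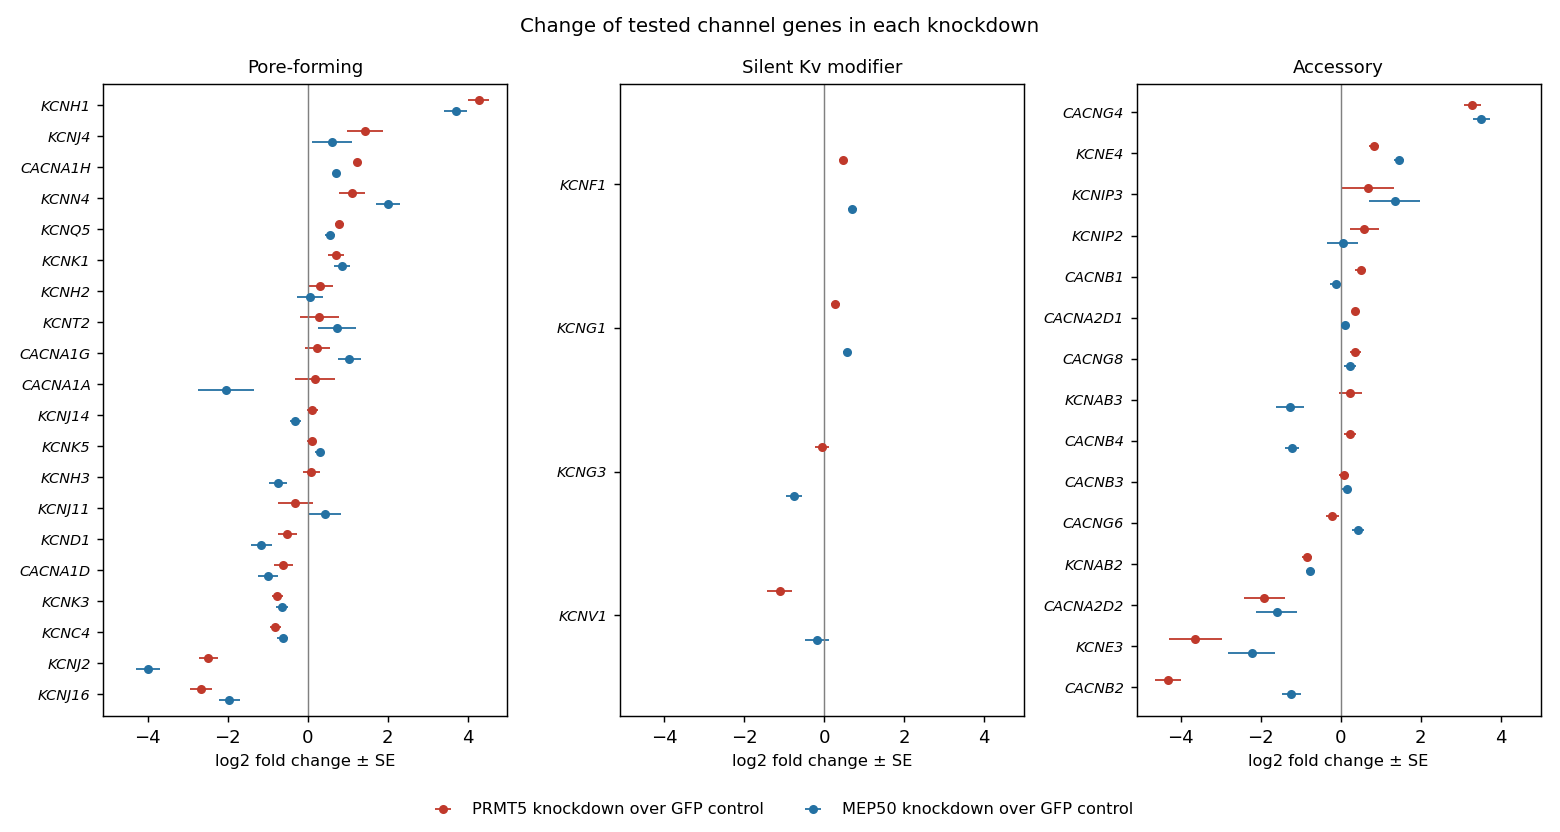
Log2 fold change (horizontal axis, ± SE of edgeR's fit) of tested channel genes in the PRMT5 knockdown and the MEP50 knockdown over the GFP control, in panels for pore-forming, silent modifier and accessory subunits. The 3 of the 42 tested genes that are not drawn are other genes than KCNH1, KCNJ2 and CACNB2, which are drawn here and left out of the counts. For the PRMT5 knockdown, KCNH1 and CACNG4 lie farthest right and KCNJ2, KCNJ16, KCNE3 and CACNB2 farthest left. For the MEP50 knockdown, KCNH1 and CACNG4 again lie farthest right, and KCNJ2, KCNE3, CACNA1A and KCNJ16 farthest left.

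Among potassium pores, 6 of 17 counted genes were higher and 3 lower in the PRMT5 knockdown, and 5 were higher and 6 lower in the MEP50 knockdown. These calls were 52.9% and 64.7% of the counted potassium pores, beside 51% and 51.7% of all tested genes. Nothing is read from these shares. KCNN4, the intermediate-conductance channel opened by calcium through calmodulin, had 0.789, 1.52 and 1.89 CPM in the PRMT5 knockdown and 2.51, 2.99 and 2.5 CPM in the MEP50 knockdown, against 0.878, 0.539 and 0.58 CPM in the GFP control. The MEP50 knockdown libraries were above all others, while the PRMT5 knockdown overlapped the control. KCNN4 was 4.02-fold higher in the MEP50 knockdown (log2 fold change 2.01 ± 0.305, adjusted p = 4.74e-07) and 2.15-fold higher in the PRMT5 knockdown (1.10 ± 0.319, adjusted p = 0.0037), a call lost without PRMT5 knockdown replicate 3 (0.82, adjusted p = 0.0547). KCNQ5, a pore of the slow M-type current that damps repeated firing, passed as higher in each knockdown. KCNQ5 averaged 9.67 ± 0.626 CPM in the PRMT5 knockdown and 8.13 ± 0.542 CPM in the MEP50 knockdown, against 5.57 ± 0.462 CPM in the GFP control (adjusted p = 4.76e-07 and 0.000307).

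The strong inward rectifier KCNJ4 passed as higher in the PRMT5 knockdown. KCNJ4 averaged 0.727 ± 0.201 CPM in the PRMT5 knockdown and 0.399 ± 0.151 CPM in the MEP50 knockdown, against 0.265 ± 0.0638 CPM in the GFP control. Its log2 fold change was 1.43 ± 0.446 in the PRMT5 knockdown (adjusted p = 0.00687), lost without PRMT5 knockdown replicate 3 (1.21, adjusted p = 0.0541). KCNJ4 passed the low-count filter through knockdown libraries and not through the GFP control, where its highest count was 10. A call as higher was therefore favoured. KCNK1, a weak inward rectifier of the tandem pore-domain family, averaged 3.2 ± 0.137 and 3.59 ± 0.665 CPM in the PRMT5 and MEP50 knockdowns, against 1.97 ± 0.202 CPM in the GFP control (adjusted p = 0.00267 and 0.000366). KCNK5, an alkaline-activated channel and the highest of that family, did not pass in the PRMT5 knockdown (log2 fold change 0.10 ± 0.112). It passed in the MEP50 knockdown at 0.30 ± 0.113 (adjusted p = 0.0233), a call lost without a low-count filter (0.28, adjusted p = 0.0578) and without GFP control replicate 1 (0.27, 0.08) or 2 (0.25, 0.109) or MEP50 knockdown replicate 3 (0.22, 0.157).

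Besides KCNJ16, the lower potassium pores were voltage-gated channels and KCNK3. KCNC4 averaged 4.58 ± 0.706 CPM in the PRMT5 knockdown and 5.12 ± 0.636 CPM in the MEP50 knockdown, against 7.99 ± 0.881 CPM in the GFP control (adjusted p = 6.01e-06 and 0.000268). KCNK3, a leak channel closed by external acid, averaged 4.56 ± 0.151 and 4.9 ± 0.553 CPM in the knockdowns, against 7.7 ± 0.764 CPM in the GFP control (adjusted p = 1.03e-05 and 0.000137). Both passed as lower in each knockdown and their libraries did not overlap with the control. KCND1, a pore of fast inactivating (A-type) current, had 0.628, 1.59 and 1.13 CPM in the MEP50 knockdown, against 2.67, 2.43 and 2.43 CPM in the GFP control, a log2 fold change of -1.16 ± 0.27 (adjusted p = 0.000372). In the PRMT5 knockdown it averaged 1.77 ± 0.25 CPM and did not pass (-0.51 ± 0.245, adjusted p = 0.0811), while it passed without MEP50 knockdown replicate 1 (-0.52, 0.0492) and when the 6 libraries of the contrast were fitted alone (-0.52, 0.0473). KCNH3, a slowly closing relative of KCNH1, passed as lower in the MEP50 knockdown (-0.74 ± 0.227, adjusted p = 0.00609), a call lost without MEP50 knockdown replicate 2 (-0.46, 0.0901). KCNH2, KCNT2, KCNJ11 and KCNJ14 did not pass in either knockdown; KCNJ14 passed in the MEP50 knockdown without its replicate 1 (-0.43, 0.0246).

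Among silent Kv modifiers, 4 of 10 were tested; these subunits form no working channel alone and change the gating of other Kv pores. KCNF1 averaged 11.8 ± 0.694 CPM in the PRMT5 knockdown and 13.9 ± 1.61 CPM in the MEP50 knockdown, against 8.52 ± 0.85 CPM in the GFP control (adjusted p = 0.000324 and 5.87e-07), and every knockdown library was above every control library. KCNG1 passed as higher in the MEP50 knockdown (log2 fold change 0.57 ± 0.11, adjusted p = 2.81e-05), and KCNG3 as lower there (-0.75 ± 0.194, 0.00115). In the PRMT5 knockdown KCNG1 was at 0.27 ± 0.109 (adjusted p = 0.0348), a call lost with DESeq2 (0.27, 0.0655), without a low-count filter (0.27, 0.078), and without GFP control replicate 1 (0.24, 0.107) or 3 (0.22, 0.143) or PRMT5 knockdown replicate 2 (0.29, 0.0555) or 3 (0.22, 0.158). KCNV1 had 1.22, 0.548 and 0.505 CPM in the PRMT5 knockdown, against 1.68, 1.52 and 1.63 CPM in the GFP control, a log2 fold change of -1.12 ± 0.321 (adjusted p = 0.00357), and 0.967 to 1.73 CPM in the MEP50 knockdown, where it did not pass.

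Accessory potassium subunits moved apart from one another. KCNE4, which restrains KCNQ1 and some KCNA pores, had 9.23, 9.94 and 8.08 CPM in the PRMT5 knockdown and 13.8, 15.1 and 13.3 CPM in the MEP50 knockdown, against 4.71, 5.43 and 5.18 CPM in the GFP control. The groups did not overlap and the MEP50 knockdown was highest, with a log2 fold change over the control of 0.83 ± 0.119 for the PRMT5 knockdown (adjusted p = 2.02e-07) and of 1.45 ± 0.117 for the MEP50 knockdown (7.79e-14). KCNE3, which holds KCNQ1 open in epithelia, had 1, 0 and 3 reads in the PRMT5 knockdown and 3, 2 and 4 in the MEP50 knockdown, against 14, 25 and 12 in the GFP control. The ratio of summed reads was 0.0733 in the PRMT5 knockdown (95% counting interval 0.0193 to 0.2) and 0.206 in the MEP50 knockdown (0.0892 to 0.423). KCNE3 passed the low-count filter through the GFP control libraries alone, so against the control it could only be called lower. Its edgeR adjusted p (1.63e-05 and 0.00134) therefore adds no support. KCNQ1 itself had no read. KCNAB2, a cytoplasmic Kv beta subunit with the fold of an oxidoreductase, averaged 6.38 ± 0.962 CPM in the PRMT5 knockdown and 6.8 ± 0.785 CPM in the MEP50 knockdown, against 11.5 ± 0.474 CPM in the GFP control (adjusted p = 1.13e-07 and 1.42e-06). Its relative KCNAB3 passed as lower in the MEP50 knockdown, at 0.493 ± 0.0504 CPM against 1.2 ± 0.237 CPM in the GFP control (log2 fold change -1.26 ± 0.348, adjusted p = 0.00235), and did not pass in the PRMT5 knockdown (1.41 ± 0.179 CPM). KCNIP2 and KCNIP3, calcium-binding partners of KCND pores, did not pass in either; KCNIP3 passed in the MEP50 knockdown without GFP control replicate 1 (2.59, adjusted p = 0.00844) or MEP50 knockdown replicate 1 (1.61, 0.045).

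Of 10 calcium pore genes 4 were tested, and the T-type pores were the ones that passed as higher. CACNA1H (ENSG00000196557) had 68.6, 71.4 and 71.6 CPM in the PRMT5 knockdown and 47.1, 52.3 and 47.7 CPM in the MEP50 knockdown, against 30.1, 30.6 and 29.7 CPM in the GFP control. CACNA1H libraries of the groups did not overlap, with fold changes of 2.34 in the PRMT5 knockdown (log2 1.23 ± 0.0529, adjusted p = 2.07e-22) and 1.63 in the MEP50 knockdown (0.70 ± 0.0552, 4.43e-14). CACNA1G had 2.08, 2.67 and 1.8 CPM in the MEP50 knockdown, against 1.24, 0.708 and 1.23 CPM in the GFP control (log2 fold change 1.04 ± 0.292, adjusted p = 0.00278), and 1.46, 0.806 and 1.48 CPM in the PRMT5 knockdown, where it overlapped the control and did not pass. Of the 2 tested high-voltage-activated pores, both passed as lower in the MEP50 knockdown and CACNA1D alone did so in the PRMT5 knockdown, each with calls that were lost in other fits. CACNA1D, an L-type pore, averaged 1.84 ± 0.457 CPM in the PRMT5 knockdown and 1.39 ± 0.509 CPM in the MEP50 knockdown, against 2.85 ± 0.277 CPM in the GFP control. CACNA1D passed as lower in the MEP50 knockdown (log2 fold change -0.998 ± 0.251, adjusted p = 0.000918). It also passed as lower in the PRMT5 knockdown (-0.61 ± 0.235, 0.0269), but not with DESeq2 (-0.63, 0.0557) or without GFP control replicate 1 (-0.62, 0.0548) or 3 (-0.55, 0.0896) or PRMT5 knockdown replicate 1 (-0.46, 0.129). CACNA1A, the P/Q-type pore, had 6 reads in the MEP50 knockdown, against 30 in the GFP control, with a read ratio of 0.234 (95% counting interval 0.0795 to 0.571) and a log2 fold change of -2.03 ± 0.699 (adjusted p = 0.0136). It no longer passed without GFP control replicate 2 (-1.50, 0.136) or MEP50 knockdown replicate 1 (-1.54, 0.0723), and in the PRMT5 knockdown, with 36 reads, its log2 fold change was 0.18 ± 0.493 and it did not pass (adjusted p = 0.788). CACNA1A passed the low-count filter through PRMT5 knockdown and GFP control libraries and through no MEP50 knockdown library, where its highest count was 3. A call as lower in the MEP50 knockdown was therefore favoured.

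Among accessory calcium subunits CACNG4 rose most. CACNG4, a gamma subunit of the branch that also escorts AMPA-type glutamate receptors, had 5.05, 5.03 and 5.33 CPM in the PRMT5 knockdown and 6.43, 5.89 and 5.81 CPM in the MEP50 knockdown, against 0.559, 0.573 and 0.435 CPM in the GFP control. Every knockdown library was above every control library, by 9.77-fold in the PRMT5 knockdown (log2 3.29 ± 0.216, adjusted p = 1.99e-16) and 11.5-fold in the MEP50 knockdown (3.52 ± 0.216, 2.11e-17). Its neighbours CACNG5 and CACNG1 on chromosome 17, which flank it in RefSeq, had 0 and 1 read in all libraries. On chromosome 19 the adjacent genes CACNG8 and CACNG6 were both present: CACNG6 averaged 3.97 ± 0.366 CPM in the PRMT5 knockdown and 6.18 ± 0.586 CPM in the MEP50 knockdown, against 4.58 ± 0.893 CPM in the GFP control, and passed as higher in the MEP50 knockdown (0.43 ± 0.154, adjusted p = 0.0186). This call was lost without GFP control replicate 1 (0.30, 0.129) or MEP50 knockdown replicate 1 (0.39, 0.059) or 3 (0.39, 0.0694). CACNG8 passed in the PRMT5 knockdown (0.36 ± 0.138, adjusted p = 0.028), which was lost with DESeq2 (0.35, 0.0621) and without GFP control replicate 1 (0.34, 0.0744) or 2 (0.34, 0.0779) or PRMT5 knockdown replicate 2 (0.18, 0.346).

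The alpha2delta and beta genes differed by member. CACNA2D1 averaged 43 ± 1.07 CPM in the PRMT5 knockdown and 36.2 ± 1.72 CPM in the MEP50 knockdown, against 33.4 ± 1.35 CPM in the GFP control, and passed in the PRMT5 knockdown (log2 fold change 0.36 ± 0.0578, adjusted p = 1.51e-06). CACNA2D2 had 14 reads in each knockdown, against 50 in the GFP control. The ratios were 0.262 in the PRMT5 knockdown (95% counting interval 0.134 to 0.481) and 0.327 in the MEP50 knockdown (0.167 to 0.601). CACNA2D2 passed the low-count filter through the GFP control libraries alone, so against the control it could only be called lower. Its edgeR adjusted p (0.00175 and 0.00871) therefore adds no support. CACNB4, a beta subunit best known from brain, had 2.61, 2.85 and 1.97 CPM in the MEP50 knockdown, against 4.99, 5.66 and 6.34 CPM in the GFP control (log2 fold change -1.21 ± 0.173, adjusted p = 1.31e-07), and 7.77, 6.1 and 6.12 CPM in the PRMT5 knockdown, where it did not pass. CACNB1, the beta subunit of skeletal muscle, passed as higher in the PRMT5 knockdown, at 7.56 ± 1.16 CPM against 5.34 ± 0.216 CPM in the GFP control (adjusted p = 0.00197). CACNB3 had the highest level per kb of the beta genes and did not pass in either knockdown, at 9.34 ± 1.16 CPM in the PRMT5 knockdown, 9.76 ± 0.607 CPM in the MEP50 knockdown and 8.83 ± 0.7 CPM in the GFP control.

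Set directly against each other, the PRMT5 knockdown had 10 of the 39 members higher and 6 lower than the MEP50 knockdown, beside 39.7% of all tested genes that passed in this comparison, 19.2% higher and 20.5% lower. The members' share, 41%, was near that of all genes, and 4 of the 39 passed with at least 2-fold, against 3.19% of all genes. These 4 were all higher in the PRMT5 knockdown. CACNB4 led in evidence, with 580 reads summed over the PRMT5 knockdown, against 171 in the MEP50 knockdown (log2 fold change 1.44 ± 0.169, adjusted p = 4.2e-09). KCNAB3 had a log2 fold change of 1.49 ± 0.34 (adjusted p = 0.000437). CACNA1A, with 36 against 6 reads, had a read ratio of 4.8 (95% counting interval 2 to 13.9; adjusted p = 0.00826), and its call was lost without MEP50 knockdown replicate 1 (log2 fold change 1.72, adjusted p = 0.0503). No MEP50 knockdown library helped CACNA1A past the low-count filter, so a call as higher in the PRMT5 knockdown was favoured.

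Smaller differences between the knockdowns went both ways. CACNA1H was 1.44-fold higher in the PRMT5 knockdown (log2 0.53 ± 0.0511, adjusted p = 3.7e-11), CACNB1 1.55-fold (0.63 ± 0.14, 0.000313) and CACNA2D1 1.18-fold (0.24 ± 0.0583, 0.000823). KCNE4 was 1.55-fold lower in the PRMT5 knockdown (-0.63 ± 0.108, adjusted p = 8.38e-06) and CACNG6 1.56-fold lower (-0.64 ± 0.156, 0.000959). Also lower were KCNN4 (-0.90, adjusted p = 0.00666), lost without PRMT5 knockdown replicate 1 (-0.65, 0.0597), and CACNA1G (-0.80, 0.0225), lost without PRMT5 knockdown replicate 2 (-0.55, 0.165) or MEP50 knockdown replicate 2 (-0.64, 0.13). KCNV1 (-0.93, 0.0232) and KCNG1 (-0.30, 0.0238) made up the 6, and each lost its call without PRMT5 knockdown replicate 2 (-0.74, 0.118 and -0.28, 0.0762) or MEP50 knockdown replicate 2 (-0.78, 0.11 and -0.29, 0.0625) or 3 (-0.87, 0.0803 and -0.30, 0.0551). KCNV1 lost it also without PRMT5 knockdown replicate 3 (-0.71, 0.124), and KCNG1 without PRMT5 knockdown replicate 1 (-0.28, 0.066) and with no low-count filter (-0.29, 0.0542). Without either PRMT5 knockdown replicate 2 or MEP50 knockdown replicate 2, 3 members in place of 6 passed as lower. The higher members also held KCNG3, lost without MEP50 knockdown replicate 3 (0.50, 0.0607), KCNH3, lost without MEP50 knockdown replicate 2 (0.55, 0.0532), and KCNJ14, lost without PRMT5 knockdown replicate 2 (0.33, 0.113) or MEP50 knockdown replicate 3 (0.30, 0.148).

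**Figure D5:**
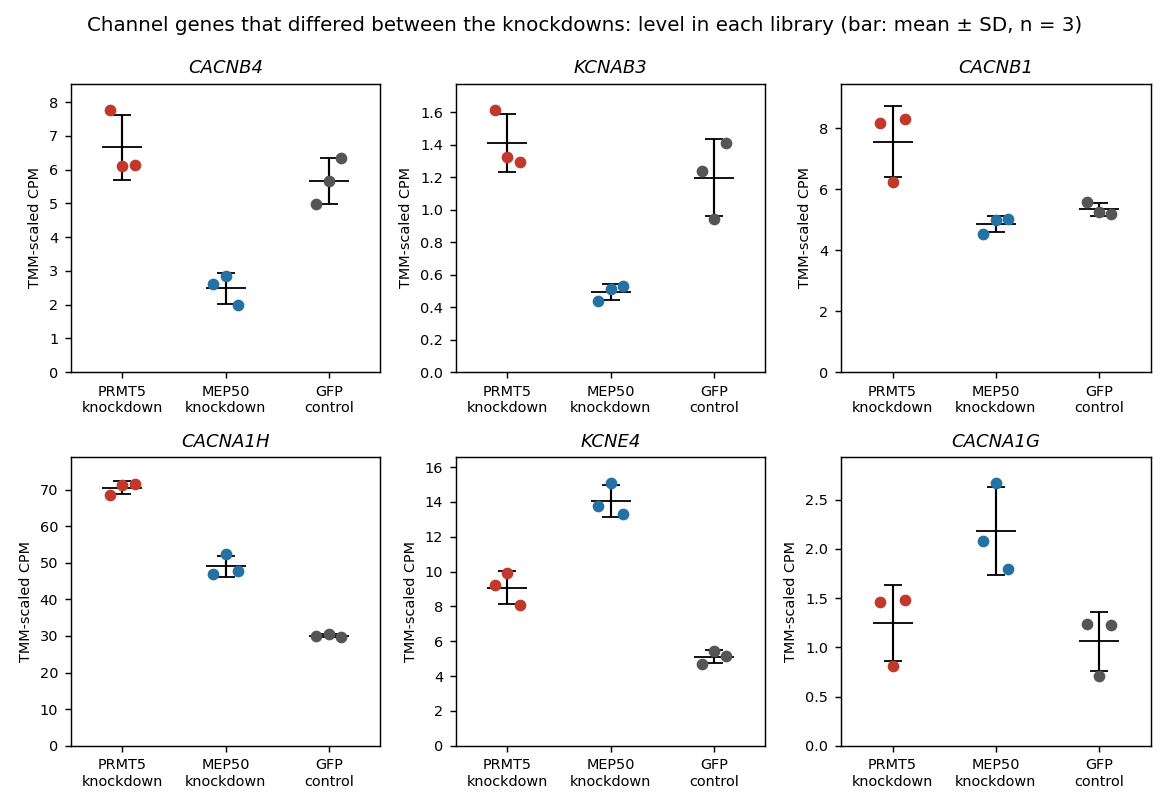
TMM-scaled CPM (vertical axes, from 0) of 6 channel genes in each library of the PRMT5 knockdown, MEP50 knockdown and GFP control, left to right (points are libraries, bars mean ± SD, n = 3). CACNB4, KCNAB3, CACNB1 and CACNA1H are higher in every PRMT5 knockdown library than in every MEP50 knockdown library, and KCNE4 and CACNA1G are lower.

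Genes that work beside these channels moved both ways, and the shares that passed are set against the 51% of all tested genes that passed in the PRMT5 knockdown and the 51.7% in the MEP50 knockdown. Of 14 tested channel partners under other names, 5 were higher and 3 lower in the PRMT5 knockdown and 5 higher and 4 lower in the MEP50 knockdown, which is 57.1% and 64.3% of them, with median log2 fold changes of 0.02 and 0.00. Among them GEM, a small GTPase that binds CACNB subunits and lowers calcium current, was 0.80 ± 0.0921 in the PRMT5 knockdown (adjusted p = 1.48e-09) and 1.59 ± 0.0894 in the MEP50 knockdown (1.27e-18) on the log2 scale. AMIGO1, a membrane partner of Kv pores, was -1.14 ± 0.311 (0.00227) and -0.81 ± 0.312 (0.0284). Of 20 tested genes of store-operated entry, calcium release and calcium pumps, 5 were higher and 7 lower in the PRMT5 knockdown and 6 higher and 7 lower in the MEP50 knockdown, which is 60% and 65%, with medians of 0.00 and -0.09. The sodium-calcium exchanger SLC8A1 was at 1.19 ± 0.0993 (2.64e-13) and 1.46 ± 0.0995 (5.76e-16). Of 14 potassium pumps, cotransporters and HCN channels, 4 and 3 were higher and 6 and 6 lower in the PRMT5 and MEP50 knockdowns, which is 71.4% and 64.3%, with medians of -0.07 and -0.05. The pacemaker channel gene HCN2 was at -0.71 ± 0.0646 in the PRMT5 knockdown (adjusted p = 2.91e-11). Of 6 tested sodium channel subunits 2 and 3 were higher and 1 and 1 lower, which is 50% and 66.7%, with medians of 0.13 and 0.44. The lower one was the epithelial channel gene SCNN1A, at -1.41 ± 0.137 (1.77e-11) and -1.66 ± 0.145 (9.18e-13). Over all tested genes the medians were 0.00 in both comparisons, and with 6 to 20 genes in a list nothing is read from these shares. Between the PRMT5 and the MEP50 knockdown, 3 were higher and 2 lower among the partners, 3 and 7 among the calcium entry and pump genes, 3 and 2 among the potassium pumps and cotransporters, and 0 and 2 among the sodium channel subunits. These are 35.7%, 50%, 35.7% and 33.3% of the lists, beside 39.7% of all tested genes.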

How the data were processed

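The deposited table gives raw read counts by Ensembl gene in 9 libraries, made by the authors with Trim Galore, STAR and HTSeq on hg19, per the submitters' processing notes; for versions and strand setting, nothing is given in the sources used here. Each knockdown also has a deposited comparison table with log2 fold changes, p-values, a DESeq2 test score and a mean signal of scaled counts, per the file headers. The 5 summary lines of HTSeq were left out. Reads that HTSeq assigned to no feature were 13.7% to 14.5% of a library in the PRMT5 knockdown. They were 12.3% to 13.8% in the MEP50 knockdown and 11.9% to 12.4% in the GFP control. A gene-name table matched 44822 identifiers to symbols, and GENCODE 29 (GRCh38) gave exon lengths for 45025. Members had to be protein-coding in GENCODE and RefSeq, which left out 33 KCN or CACN rows, 1 of them protein-coding in GENCODE alone.

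Counts were tested with edgeR 4.0.16 (R 4.3.3): TMM, filterByExpr, 1 robust quasi-likelihood fit of all 9 libraries by group, and Benjamini-Hochberg adjustment over all tested genes at 0.05. The fit was tested on simulated data. Each SE was obtained by dividing the log2 fold change by the square root of the F statistic. Ratios of summed reads have 95% exact (Clopper-Pearson) intervals for counting error only. Replicate pairs differed by 3.38 to 4.7 times counting variance, so no library was a copy of another. Same-numbered libraries had correlations of deviations from -0.0328 to 0.0546, so the numbers do not pair them. Named were the 3 singled-out genes, members that passed with at least 2-fold, the highest member per kb of each family, members at the edge of the low-count filter and the most changed genes of each other list; further members were named to account for counts of calls. Members, lists and tests were chosen with earlier results of these data known. Alternatives were RLE, upper-quartile and no scaling, DESeq2 1.42.0, other low-count filters, a replicate block, fits of 6 libraries and leaving out each library. Values of some genes in the counts are not reported here by name.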

Additional observations from a re-analysis of the deposited data

How the results depend on the processing

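Under the 8 settings other than leaving out a library, every count of members or genes that passed stayed within 1.5 times its value. No log2 fold change of a named member changed sign in the settings that fitted it. The filter of at least 1 CPM in 3 libraries kept 34 of the 42 members, and the 6-library fit of the PRMT5 knockdown and the GFP control kept 41. Members left out there were not checked in those settings. With the replicate block, 14 members passed as higher and 8 as lower for the PRMT5 knockdown, 12 and 14 for the MEP50 knockdown, and 10 and 6 between the knockdowns, as without it. Scaling moved the median of all genes by at most 0.0213 on the log2 scale. Leaving out 1 library gave 3 to 6 lower members between the knockdowns. The rise of WDR77 in the PRMT5 knockdown was lost with DESeq2 (log2 fold change 0.157) and in 5 of the 9 fits without 1 library, whose range was 0.111 to 0.191; the cause was not tested. For members that did not pass, the sign of the log2 fold change turned in some fits without 1 library. In the PRMT5 knockdown the range was -0.086 to 0.72 for CACNA1A, -0.0184 to 0.167 for CACNB3, -0.183 to 0.083 for KCNG3 (0.0588 without GFP control replicate 2) and -0.85 to 0.0219 for KCNJ11. In the MEP50 knockdown it was -0.166 to 0.244 for KCNH2 (-0.149 without GFP control replicate 1), -0.108 to 0.214 for KCNIP2 (-0.00403 and -0.0284 without GFP control replicates 1 and 3) and -0.341 to 0.0131 for KCNV1. Between the knockdowns it was -0.164 to 0.0137 for CACNB3 and -0.0427 to 0.222 for CACNG8. Members with few reads, such as KCNE3 and CACNA1A, are limited by counting.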

Other observations

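Among rows with a KCN symbol that are no members, KCNH1-IT1, a transcript inside an intron of KCNH1, was counted 1, 7 and 1 times in the GFP control and passed as higher in the PRMT5 knockdown (log2 fold change 2.66 ± 0.58, edgeR adjusted p = 0.000184) and in the MEP50 knockdown (2.33 ± 0.62, adjusted p = 0.00164). KCNH1-IT1 passed the low-count filter through knockdown libraries and not through the GFP control, where its highest count was 7. A call as higher against the control was therefore favoured. Reads of such an intronic transcript and of unspliced KCNH1 RNA cannot be told apart in these counts. Of the protein-coding genes around KCNH1 in RefSeq, SERTAD4 passed as higher in both, at 8.57 ± 1.24 CPM in the PRMT5 knockdown and 13.4 ± 1.01 CPM in the MEP50 knockdown, against 2.71 ± 0.479 CPM in the GFP control, while HHAT, which lies between them, was at 5.83 ± 0.404 and 7.63 ± 0.339 CPM, against 7.64 ± 0.183 CPM in the GFP control. RCOR3, on the other side of KCNH1, was at 43.1 ± 1.83 and 48.3 ± 1 CPM in the PRMT5 and MEP50 knockdowns, against 48.1 ± 2.49 CPM in the GFP control. These genes were looked at after the values of KCNH1 were seen.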
